A study of Mus musculus with 2 samples.

Results

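The proteasome genes of a pair of mouse melanoma lines were followed through 2 single-cell RNA libraries: one of B16F10, labelled as a highly metastatic subclone, and one of B16F0, the parental line. No treatment was given to either line, and each was sampled once, so there was no replicate and no test between lines was possible. Members were taken by symbol, as Psm followed by a letter from a to g and a number, which matched 48 of the 14959 genes counted. Of these, 31 encode subunits of the 26S proteasome, 14 in the 20S core and 17 in the 19S cap, and they carry most of the results below. The other 17 were the 3 immunoproteasome catalytic genes Psmb8, Psmb9 and Psmb10, 4 chaperones of 20S assembly, 3 chaperones of 19S base assembly, 4 activators, the regulator Psmf1, Psme2b and Psmc3ip. Psme2b is a near-identical copy of the activator gene Psme2 with 46 UMIs in B16F10 and 141 in B16F0, so reads could be split between them and the values of Psme2 are uncertain. Psmc3ip was matched by its prefix alone: it encodes a meiotic recombination factor and not a proteasome subunit. Psma8 and Psmb11 were not analysed here.

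The 26S proteasome is the chief machine that degrades ubiquitin-tagged proteins in the cytosol and nucleus. Its 20S core is a barrel of stacked alpha and beta rings, and 3 of the beta subunits, Psmb5, Psmb6 and Psmb7, cut the substrate inside the barrel. The 19S cap has a base, whose ring of ATPases unfolds the substrate and feeds it into the barrel, and a lid, which holds the deubiquitinase Psmd14. Under interferon-gamma, cells replace the cutting subunits by Psmb8, Psmb9 and Psmb10, which favours peptides that class I molecules can present. When the proteasome is inhibited, the transcription factor NRF1, encoded by Nfe2l1, raises many subunit genes together.

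The B16F10 library held 1574 cells and 56748682 UMIs, against 2582 cells and 94268486 UMIs for B16F0, with medians of 34951 and 35504 UMIs per cell. Mitochondrially encoded genes took 6.78% of UMIs in B16F10 and 5.41% in B16F0. Both libraries carried the markers of the melanocyte lineage, with all 8 detected and a sum of 7767 CPM (UMIs scaled by the UMI total of the library) in B16F10 and 7930 CPM in B16F0. The marker lists of fibroblasts, macrophages, T and NK cells and keratinocytes summed to at most 9.71 CPM in either line. The endothelial list reached 65.2 CPM in B16F10 and 66.8 CPM in B16F0, of which Egfl7 alone made 63.0 and 66.2 CPM. The libraries shared 6 cell barcodes.

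Promoter windows show what sequence the members share outside the counts, and 4 are printed because their genes carry the results below. Psmb5 and Psmb6 encode cutting subunits with an NRF1-type element, Psmd8 has the highest level of the 17 matched 19S genes in both lines and Psmb9 is an immunoproteasome gene that was nearly silent in both lines. The windows are from RefSeq on GRCm38.p6, run from 250 bases before the gene start to 50 after it, and are written 5′ to 3′ on the gene's own strand. They lie at chr14:54617946-54618245 (minus strand) for Psmb5, chr11:70525107-70525406 (plus strand) for Psmb6, chr7:29180624-29180923 (minus strand) for Psmd8 and chr17:34187281-34187580 (minus strand) for Psmb9. Capitals mark a match of the NRF1-type element TGACNNNGC in Psmb5 and Psmb6, the ETS core CGGAAG read on the opposite strand in Psmd8, and the CCAAT box read on the opposite strand in Psmb9.
Psmb5: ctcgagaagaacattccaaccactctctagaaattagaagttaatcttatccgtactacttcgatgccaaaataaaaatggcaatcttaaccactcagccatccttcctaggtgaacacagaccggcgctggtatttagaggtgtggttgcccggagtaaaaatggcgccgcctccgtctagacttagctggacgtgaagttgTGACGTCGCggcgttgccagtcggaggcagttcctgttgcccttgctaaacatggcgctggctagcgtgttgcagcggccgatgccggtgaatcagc
Psmb6: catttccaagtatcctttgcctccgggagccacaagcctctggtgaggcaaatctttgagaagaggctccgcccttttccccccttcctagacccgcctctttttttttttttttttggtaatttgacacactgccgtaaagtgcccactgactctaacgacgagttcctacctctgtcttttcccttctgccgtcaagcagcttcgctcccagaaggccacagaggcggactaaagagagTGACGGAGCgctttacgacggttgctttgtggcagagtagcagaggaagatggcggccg
Psmd8: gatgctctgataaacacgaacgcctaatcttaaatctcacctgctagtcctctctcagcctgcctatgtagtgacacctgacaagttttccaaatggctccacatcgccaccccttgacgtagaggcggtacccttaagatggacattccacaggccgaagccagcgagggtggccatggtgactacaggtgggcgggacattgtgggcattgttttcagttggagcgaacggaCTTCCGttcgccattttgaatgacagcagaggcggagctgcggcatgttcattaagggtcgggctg
Psmb9: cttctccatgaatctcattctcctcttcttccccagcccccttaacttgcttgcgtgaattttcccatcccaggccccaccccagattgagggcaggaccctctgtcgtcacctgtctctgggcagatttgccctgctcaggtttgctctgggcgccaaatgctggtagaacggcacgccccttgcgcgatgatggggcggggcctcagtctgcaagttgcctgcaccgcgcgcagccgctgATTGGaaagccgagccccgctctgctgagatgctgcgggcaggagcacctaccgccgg

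A window was found for 41 members, among them 25 of the 31 26S genes. TGACNNNGC, searched on both strands, was in the windows of 4 of these 25, Psmb5, Psmb6, Psmc6 and Psmd12, which is 16% beside 17.2% of all genes at 10 CPM or more. CCAAT, also on both strands, was in 10 of them, or 40%, beside 43.1% of the expressed genes. CGGAAG was in 17 of them, or 68%, beside 41.4% of the expressed genes and 18.8% of all genes with a window. TTCNNNGAA was in 1 of 25 (Psmd2), beside 7.54% of the expressed genes. TTCNNTTTC, an interferon-type core, was in 4 of 25 (Psmb3, Psmb4, Psmc2 and Psmd4), or 16%, beside 8.20% of the expressed genes. CGGAAG and the last 2 motifs were added after the first 2 had been counted, and the interferon-type core was shortened by 1 letter after its own first count. The window of Psmb9 overlaps that of the peptide transporter gene Tap1 on the opposite strand by 275 bases, so these neighbours share nearly all of the sequence searched. A letter match is a description and not evidence that a factor binds.

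Levels are UMIs summed over all cells of a line and given as CPM. The chemistry counts 1 tag near the 3′ end of each transcript whatever its length, so CPM values were not divided by gene length. All intervals are exact 95% intervals for counting error only, and ratios are log2 of B16F10 over B16F0 unless another pair is named. Genes entered a comparison with 10 CPM or more in the higher group, and a gene was counted as higher or lower from 1.5-fold upwards. The 26S subunit genes lay between 51.7 and 643 CPM in B16F10 and between 46.6 and 671 CPM in B16F0, with medians of 149 and 159 CPM. Their order was almost the same in both lines, with a Spearman rho of 0.97 over the 31 genes, given as a description. In the order of levels, 14 pairs of neighbours in B16F10 and 8 in B16F0 had overlapping intervals and could not be ranked.

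**Figure D1:**
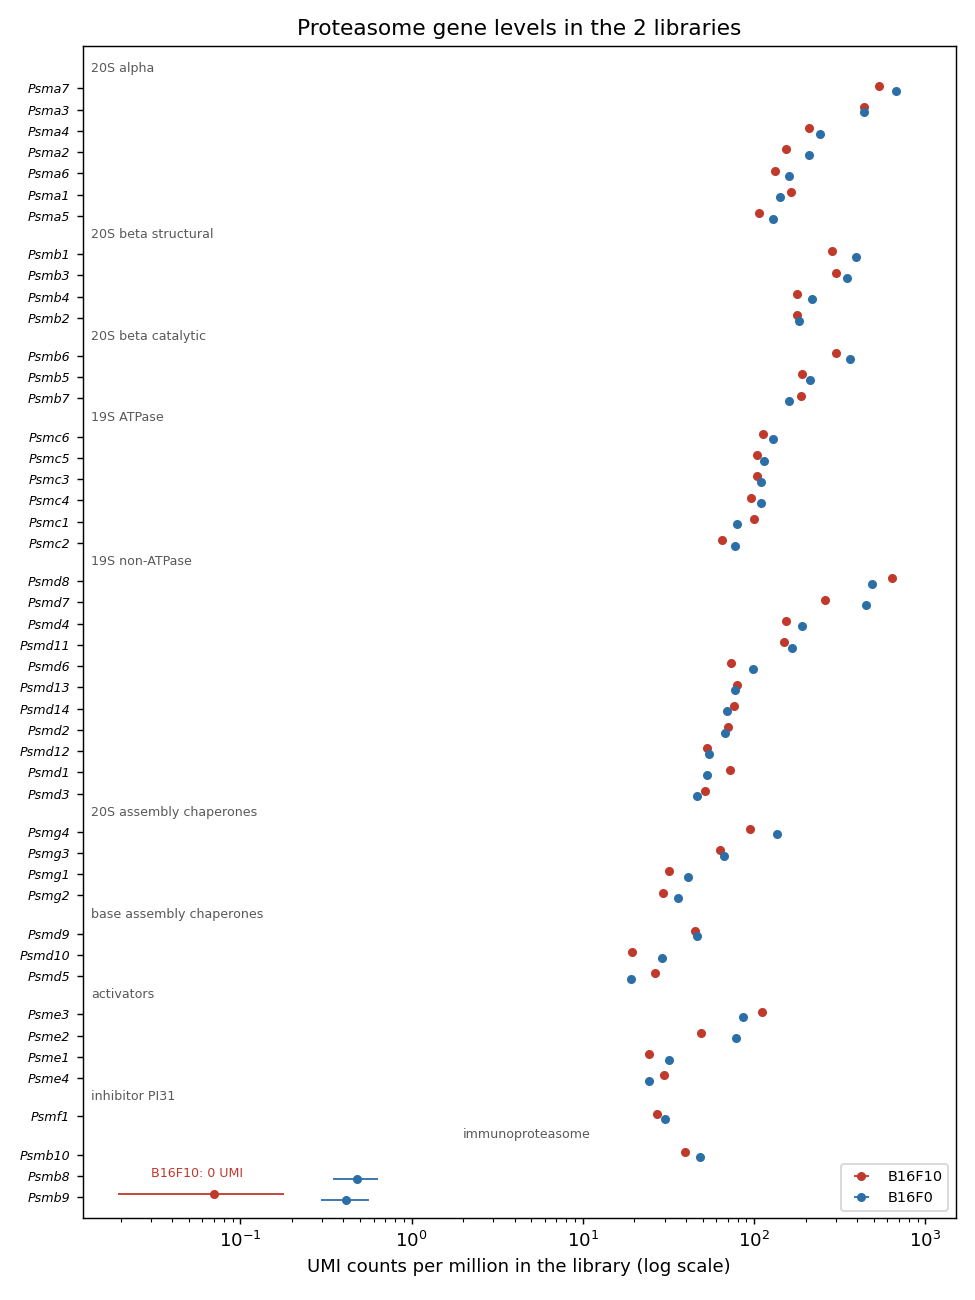
Level of each proteasome gene in CPM (log axis) by role, B16F10 and B16F0, with exact 95% counting intervals; Psme2b and Psmc3ip are not drawn. The 26S subunit genes sit between 46.6 and 671 CPM in both lines, while Psmb8 and Psmb9 lie below 1 CPM and Psmb8 has no UMI in B16F10.

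Summed over the 31 subunit genes, the 26S level was 5621 CPM in B16F10 and 6252 CPM in B16F0, a log2 ratio of -0.15 (-0.16 to -0.15). The median ratio of the 31 genes was -0.16, while the median of all 7425 genes compared was 0.13. In B16F10, 21 of the 31 lay below B16F0, beside 37.2% of all genes. None was 1.5-fold or more higher, beside 11.3% of all genes, and 1 was lower by that much, beside 6.14%. That gene was Psmd7, a lid subunit at chr8:107580381-107588464 on GRCm38, at 259 CPM in B16F10 and 449 CPM in B16F0. Its log2 ratio of -0.79 (-0.82 to -0.77) was a 1.73-fold lower level. With 1 library a line, a difference between the lines cannot be told apart from one between these 2 libraries.

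The alpha ring genes, whose N termini gate entry to the barrel, summed to 1740 CPM in B16F10 and 1991 CPM in B16F0. Psma7, the most abundant of them, stood at 535 CPM in B16F10 against 671 CPM in B16F0. Psma2 had the lowest ratio of the ring, -0.44, with 154 CPM in B16F10 and 210 CPM in B16F0, and Psma1 the highest, 0.21, with 165 CPM and 142 CPM in the same order. Psma3 was level at 437 CPM in B16F10 and 436 CPM in B16F0. Psma4, Psma5 and Psma6 had ratios of -0.21, -0.28 and -0.27.

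The structural beta genes, which complete the inner rings, had the lowest summed ratio of the 5 subunit roles, -0.28. They summed to 937 CPM in B16F10 and 1141 CPM in B16F0. Psmb1 was at 283.5 CPM in B16F10 and 392.2 CPM in B16F0, a ratio of -0.47, while Psmb2 was close to level at 178 CPM in B16F10 and 182 CPM in B16F0. Psmb3 and Psmb4 had ratios of -0.22 and -0.30. The catalytic genes summed to 679 CPM in B16F10 and 736 CPM in B16F0. Psmb6, the caspase-like subunit, was at 301 CPM in B16F10 and 365 CPM in B16F0, and Psmb5, the chymotrypsin-like subunit and the target of bortezomib, at 190 CPM in B16F10 and 212 CPM in B16F0. Psmb7, the trypsin-like subunit, was the one of the 3 that was higher, at 187 CPM in B16F10 and 160 CPM in B16F0, a ratio of 0.23.

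As a sum, the 17 matched cap genes differed less than the core genes. These 17 genes of the 19S had 2266 CPM in B16F10 and 2383 CPM in B16F0, a ratio of -0.07, against -0.21 for the 20S genes. The symbol rule leaves the small 19S subunit Sem1 out of this sum. Sem1 alone had 1769 CPM in B16F10 and 2123 CPM in B16F0, a ratio of -0.26, so the smaller difference holds for the matched genes only. Single genes did not differ less in the cap, with ratios from -0.79 (Psmd7) to 0.45 (Psmd1), against -0.47 (Psmb1) to 0.23 (Psmb7) in the core. Among the ATPases, which summed to 584 CPM in B16F10 and 618 CPM in B16F0, Psmc6 had the highest level, with 113 CPM in B16F10 and 128 CPM in B16F0. Psmc1 had the highest ratio, 0.34, and Psmc2 the lowest, -0.26. Among the non-ATPases, Psmd8, a lid subunit, had 643 CPM in B16F10 and 491 CPM in B16F0, a ratio of 0.39. Psmd1, the large scaffold of the base, had the highest ratio of all 31 genes, 0.45, from 72.3 CPM in B16F10 and 52.8 CPM in B16F0. Psmd14, the deubiquitinase, stood at 76.4 CPM in B16F10 and 69.7 CPM in B16F0, and Psmd4, a ubiquitin receptor, at 155 CPM in B16F10 and 190 CPM in B16F0. Psmd2, Psmd13 and Psma3 had ratios of 0.05, 0.03 and 0.00, and all 3 turned below 0 under either alternative scaling.

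The 20S assembly chaperones, which build the alpha ring, summed to 219 CPM in B16F10 and 281 CPM in B16F0. Psmg4 had the lowest ratio of the 4, -0.53, with 94.3 CPM in B16F10 and 137 CPM in B16F0, and Psmg1, Psmg2 and Psmg3 had ratios of -0.38, -0.29 and -0.07. The base chaperones went both ways, with Psmd10 (gankyrin) at -0.58, Psmd9 at -0.05 and Psmd5 at 0.46. Psme3, which encodes the nuclear activator PA28 gamma, was at 111 CPM in B16F10 and 86.3 CPM in B16F0, a ratio of 0.36, and Psme4, the PA200 activator, had a ratio of 0.28. The interferon-inducible PA28 subunits went the other way, with Psme1 at 24.2 CPM in B16F10 and 31.9 CPM in B16F0 and Psme2 at 48.9 CPM in B16F10 and 78.3 CPM in B16F0, with ratios of -0.40 and -0.68. Psme2 was thus past the fold as well. Psmf1, which encodes PI31, had a ratio of -0.17.

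The immunoproteasome genes were low in both lines and lower in B16F10. Psmb8 and Psmb9 lie close together at chr17:34197721-34201454 and chr17:34181987-34187764, and Psmb10 at chr8:105935735-105938444, all on GRCm38. Psmb10 was the one expressed at a level near that of the rarer subunits, with 39.4 CPM in B16F10 and 48.5 CPM in B16F0, a ratio of -0.30 (-0.37 to -0.23). Psmb8 had no UMI in B16F10 and 45 UMIs in B16F0, which is at least 9.03-fold lower in B16F10 against 3 counts over the B16F10 library, while the exact interval of the log2 ratio reached up to -2.82. Psmb9 had 4 UMIs in B16F10 and 39 in B16F0, a ratio of -2.55 with a wide interval of -4.50 to -1.08. Among cells thinned to 23173 UMIs each, Psmb8 was seen in 0 of 1416 B16F10 cells, which allows a share of cells with a UMI at this depth of up to 0.212% from 3 counts, or 0.260% as the Clopper-Pearson limit, and in 23 of 2194 B16F0 cells, or 1.05% (0.666 to 1.57%). In B16F0 these UMIs were spread over all 4 clusters, with 6 to 17 UMIs of Psmb8 and 7 to 12 of Psmb9 in each. At shares near 1% of cells, RNA free in the droplets was not separated from expression, and no cell type known to lack these genes was sampled.

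Other genes of the pathway were read from lists drawn up for this tissue, at the same minimum of 10 CPM and the same 1.5-fold. Of 10 other proteasome parts and cofactors none was higher or lower by that fold. Sem1, a small 19S subunit, was at 1769 CPM in B16F10 and 2123 CPM in B16F0, and Pomp, the 20S maturation factor, at 248 CPM in B16F10 and 306 CPM in B16F0. Akirin2, which carries proteasomes into the nucleus, and AI314180 (Ecm29) both had ratios of 0.58. None of 8 genes of the NRF1 pathway passed the fold, and Nfe2l1 itself was at 55.3 CPM in B16F10 and 61.0 CPM in B16F0. Of 11 shuttle and p97 cofactor genes, Rad23b, a ubiquitin shuttle, was higher, at 137 CPM in B16F10 and 79.4 CPM in B16F0. Of 6 class I peptide loading genes 4 were lower: B2m, the class I light chain, was at 188 CPM in B16F10 and 436 CPM in B16F0, and Tapbp, H2-K1 and H2-D1 had ratios of -0.97, -0.99 and -0.89. H2-K1 and H2-D1 are near-identical over stretches and their split of reads is uncertain. Tap1 and Tap2, the transporter that feeds class I, had 19 and 20 UMIs in B16F10 and 127 and 162 UMIs in B16F0.

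The 26S level of a cell moved with its mitochondrial share in both lines, and the lines differed in that share. In cells with at most 5% mitochondrial UMIs, the 31 genes summed to 7274 CPM in 318 B16F10 cells and 7306 CPM in 999 B16F0 cells. Between 5 and 8%, the sums were 5707 CPM in 776 B16F10 cells and 5538 CPM in 1456 B16F0 cells. Above 8%, they were 3990 CPM in 480 B16F10 cells and 4561 CPM in 127 B16F0 cells. So the lines lay close to each other in the lower bins with all clusters pooled, and cells above 8% made up 30.5% of B16F10 and 4.92% of B16F0. Within the deposited clusters C3 and C4 the lines lay further apart between 5 and 8%. There C3 had 5042 CPM in B16F10 and 6097 CPM in B16F0, and C4 had 3752 CPM and 5736 CPM in the same order. Leaving mitochondrial and ribosomal protein genes out of the total kept the order of the bins, with 10439, 8512 and 6205 CPM in B16F10 and 10734, 8548 and 7179 CPM in B16F0. Depth went down with it, with medians of 41424, 36581 and 30157 UMIs per cell across the B16F10 bins and 39093, 33938 and 26348 UMIs across those of B16F0. When cells above 8% were left out, the median ratio of the 31 genes between the lines was -0.04, with 17 below 0, and Psmd7 was at -0.68. In cells limited by mitochondrial share or by depth, here and below, the share of all genes was not counted, so these counts have no background. The bins were chosen after the values had been seen, and the part of mitochondrial share or depth in the line difference was not tested.

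The deposited cell-cycle class calls a cell cycling when its S or G2/M score is above 0, which gave 1230 cycling and 344 non-cycling cells in B16F10 and 1411 and 1171 in B16F0. Among non-cycling cells, the 26S genes summed to 5100 CPM in B16F10 and 6488 CPM in B16F0, with a median ratio of -0.36. There 28 of 31 lay below 0, beside 43.4% of all genes, and 6 were 1.5-fold or more lower, beside 7.35%. They were Psmd7 (184 CPM in B16F10 and 437 CPM in B16F0, ratio -1.25), Psmd6, a lid subunit (-0.74), Psma2 (-0.72), Psmc2 (-0.63), Psma7 (-0.62) and Psma4 (-0.59). Psmd8 went against them at 657 CPM in B16F10 and 517 CPM in B16F0, and Psmb7, Psmc1 and Psmd1 had ratios of 0.11, 0.03 and -0.04. Non-cycling cells with at most 8% mitochondrial UMIs had a median ratio of -0.16, with 1 gene lower and 26 below 0, and the share of all genes was not counted there.

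Among cycling cells the lines were closer, with sums of 5749 CPM in B16F10 and 6069 CPM in B16F0 and a median ratio of -0.10. Here 18 of 31 lay below 0, beside 39.2% of all genes, and Psmd7 alone was 1.5-fold or more lower, beside 5.97%, at 277 CPM in B16F10 and 459 CPM in B16F0. Psmb1, Psma2 and Psmd6 had the next lowest ratios, -0.37, -0.31 and -0.28. Psmd1, Psmc1, Psmd8 and Psmb7 had the highest, 0.54, 0.44, 0.44 and 0.29. With at most 8% mitochondrial UMIs, the median ratio in cycling cells turned to 0.03, with 13 below 0. Psmd7 was therefore the one subunit gene past the fold both in non-cycling and in cycling cells.

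**Figure D2:**
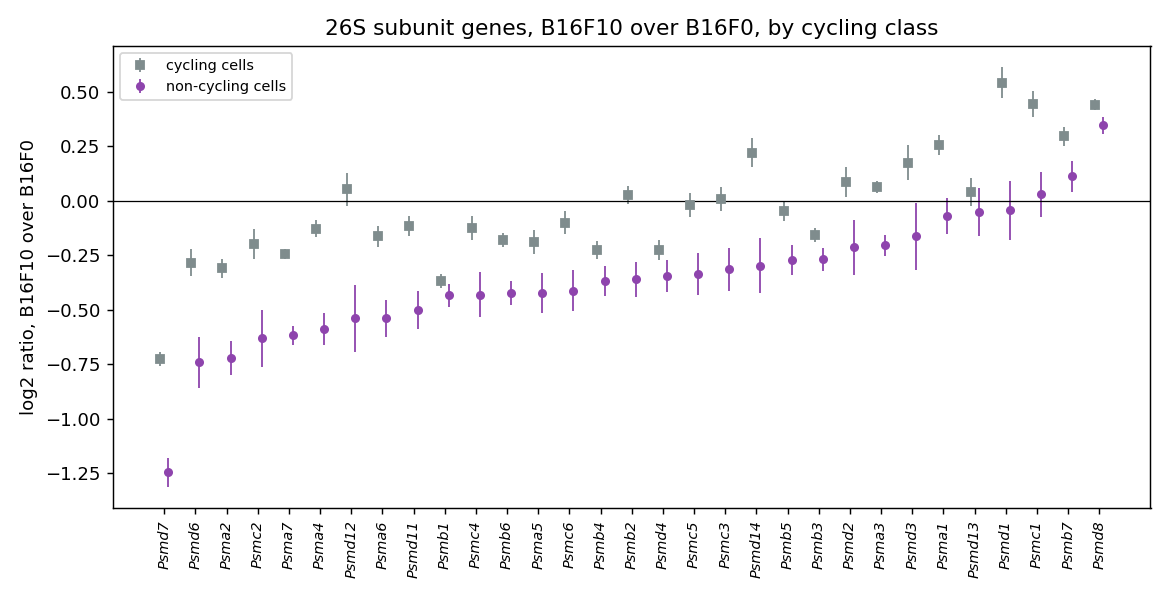
Log2 ratio of B16F10 over B16F0 for each 26S subunit gene in cycling (squares) and non-cycling (circles) cells, ordered by the non-cycling ratio, with exact 95% counting intervals. Most genes lie further below 0 in non-cycling cells (median -0.36) than in cycling cells (median -0.10), and Psmd7 is lowest in both.

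Cycling and non-cycling cells of 1 line share a library and a set of free RNA, so they are compared as classes and not as replicates. In B16F10, the 26S genes summed to 5749 CPM in cycling cells and 5100 CPM in non-cycling cells, a log2 ratio of 0.17 (0.16 to 0.19). The median over the 31 genes was 0.27 and over all genes 0.10, and 6 of 31 lay below 0, beside 38.8% of all genes. In all, 3 were 1.5-fold or more higher, beside 13.2%: Psmd12, Psmd1 and Psmd7, with ratios of 0.63, 0.62 and 0.59. When mitochondrial and ribosomal protein genes were left out of the total, the summed ratio was 0.062, the median 0.16 and 0 genes were higher by that fold. With cells limited to 25000 to 45000 UMIs, or to at most 8% mitochondrial UMIs, 1 was. Psmd12, a lid subunit, was at 57.3 CPM in cycling cells and 37.1 CPM in non-cycling cells. Psmd14 followed at 0.52, with 81.2 CPM in cycling cells and 56.6 CPM in non-cycling cells. Psmb1, Psmd4, Psmb3 and Psmb4 had the lowest ratios, -0.27, -0.09, -0.06 and -0.04. By role, the alpha ring, ATPases and non-ATPases had summed ratios of 0.28, 0.27 and 0.21, and the structural beta and catalytic genes -0.04 and 0.04.

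In B16F0 the sum was 6069 CPM in cycling cells and 6488 CPM in non-cycling cells, a ratio of -0.10. The median over the 31 genes was -0.06, with 19 below 0, beside 40.8% of all genes, and none was 1.5-fold or more higher, beside 9.89%. Psmd3, a lid subunit, Psmd11, Psmd7 and Psma1 had the highest ratios, 0.13, 0.09, 0.07 and 0.06. Psmb1 had the lowest, -0.34, with 351 CPM in cycling cells and 445 CPM in non-cycling cells, followed by Psmb5 at -0.24, Psma2 at -0.21 and Psmd4 at -0.20. Psmb1 was thus the lowest of the 31 in both lines. With the same genes left out of the total as in B16F10, the summed ratio of B16F0 was -0.15. Above 0 in B16F10 and below 0 in B16F0 were 13 of the 31 genes, beside 11.7% of all genes compared in both lines, and 8 of the 31 had both intervals clear of 0 on opposite sides, beside 4.1%. Mitochondrial genes took 6.57% of UMIs in cycling and 7.60% in non-cycling B16F10 cells, and 5.36% and 5.48% in the same classes of B16F0. Median depth was 36316 UMIs in cycling and 30189 UMIs in non-cycling B16F10 cells, and 37356 and 33745 UMIs in B16F0; the part of either in these ratios was not tested.

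**Figure D3:**
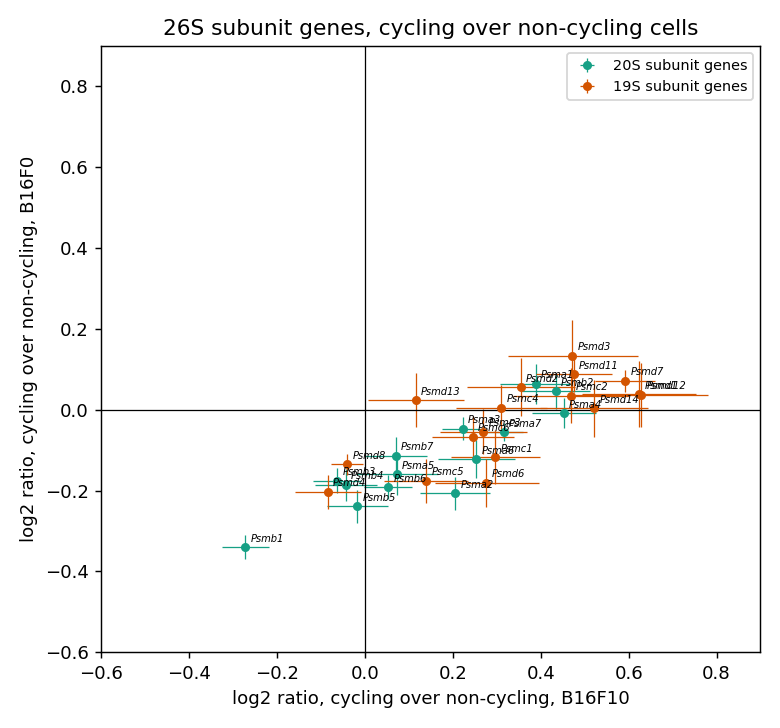
Log2 ratio of cycling over non-cycling cells for each 26S subunit gene, in B16F10 (x axis) and B16F0 (y axis), with exact 95% counting intervals, 20S and 19S genes in 2 colours. Of the 31 genes, 13 lie above 0 in B16F10 and below 0 in B16F0, beside 11.7% of all genes compared in both lines, and Psmb1 is lowest in both lines.

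Outside the 26S genes, Psmc3ip had the largest cell-cycle ratio of all 48, with 59.5 CPM in cycling and 15.7 CPM in non-cycling B16F10 cells and 69.0 CPM and 16.2 CPM in the same classes of B16F0. Psme3 had ratios of 0.55 in B16F10 and 0.35 in B16F0. Psmd5 had a ratio of 0.67 in B16F10, from 28.6 CPM in cycling and 18.0 CPM in non-cycling cells. The 20S assembly chaperones summed to ratios of 0.12 in B16F10 and 0.17 in B16F0. Of the pathway lists, Uchl5, a deubiquitinase of the cap, and Faf1, a p97 cofactor, were 1.5-fold or more higher in cycling cells of both lines, and no gene of the NRF1 list was in either line.

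Kdm5b, an H3K4 demethylase whose high level marks slow-cycling cells in human melanoma, gives a second deposited class, compared here among non-cycling cells. B16F10 had 77 Kdm5b high and 267 Kdm5b low cells, and their 26S sums were 5414 CPM in Kdm5b high and 5012 CPM in Kdm5b low cells. The median ratio was 0.13, with 6 of 31 below 0, beside 45.1% of all genes, and none was 1.5-fold or more higher, beside 2.07%. Psmd2, the second large scaffold of the base, had the highest ratio, 0.48 (0.22 to 0.73), with 73.6 CPM in Kdm5b high and 52.7 CPM in Kdm5b low cells. Psmc5, Psmd3 and Psma4 followed at 0.39, 0.34 and 0.27. Outside the 26S genes, the base chaperone Psmd5 was past the fold, with a ratio of 0.68 (0.22 to 1.12), from 62 UMIs in Kdm5b high and 139 UMIs in Kdm5b low cells. Psmd14, Psmc3, Psma2 and Psmc1 had the lowest ratios, between -0.09 and -0.07, and their intervals all held 0.

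In B16F0, with 91 Kdm5b high and 1080 Kdm5b low cells, the sums were 6814 CPM in Kdm5b high and 6463 CPM in Kdm5b low cells. The median ratio was 0.06, with 10 of 31 below 0, beside 39.5% of all genes, and again none was 1.5-fold or more higher, beside 1.63%. Psmb5 had the highest ratio, 0.40 (0.30 to 0.50), with 299 CPM in Kdm5b high and 226 CPM in Kdm5b low cells, followed by Psmb7, Psmd6 and Psmc3 at 0.30, 0.26 and 0.25. Psmd3, Psmb2, Psma5 and Psmc4 had the lowest ratios, -0.15, -0.11, -0.07 and -0.05. The classes differed in makeup, since cluster C3 held 67.0% of the Kdm5b high and 47.0% of the Kdm5b low cells of B16F0. Within C3, Psmb5 was at 356 CPM in Kdm5b high and 309 CPM in Kdm5b low cells, a ratio of 0.20, but the median over the 31 genes turned to -0.035, with 19 below 0. The intervals of 2 genes lay above 0 and that of 1 below 0 there, and the share of all genes was not counted within C3. Under TMM scaling the median over all non-cycling cells was -0.011, so the direction of the B16F0 median depended on the scaling and on the cells used. In B16F10, C3 held 81.8% of the Kdm5b high and 81.3% of the Kdm5b low cells. Mitochondrial UMIs were 7.25% in Kdm5b high and 7.70% in Kdm5b low non-cycling cells of B16F10, and 5.12% and 5.51% in B16F0. Their part in these ratios was not tested. Among cycling cells, only 44 B16F10 and 20 B16F0 cells were Kdm5b high, and they were not compared.

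The deposited clusters were made from the same cells and genes, so their levels are a description and the pairs set side by side were chosen after the levels had been seen. Clusters of under 50 cells of a line were left out. In B16F10, the 31 genes summed to 4790 CPM in C3 (306 cells), 3779 CPM in C4 (212 cells) and 6143 CPM in C5 (1045 cells). In B16F0, they summed to 6213 CPM in C1 (816 cells), 5408 CPM in C2 (644 cells), 6846 CPM in C3 (640 cells) and 6630 CPM in C4 (469 cells). C4 of B16F10 stood lowest: 24 of the 31 genes had their lowest level there, 6 in C2 of B16F0 and 1 in C3 of B16F10. The highest levels were spread over C5 of B16F10 (10 genes) and C3, C1 and C4 of B16F0 (10, 6 and 5 genes).

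**Figure D4:**
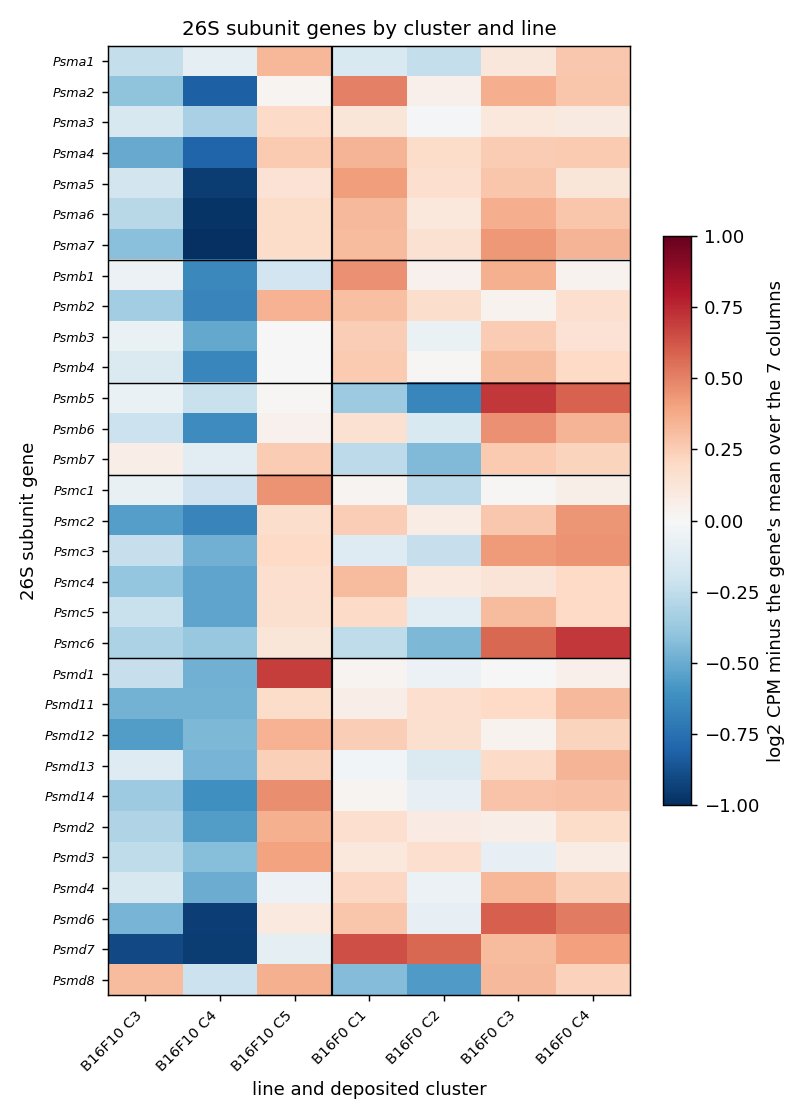
Level of each 26S subunit gene in each cluster of 50 cells or more of a line, as log2 CPM minus the gene's mean log2 CPM over the 7 columns (colour scale). C4 of B16F10 is low across nearly all genes, and Psmb5 and Psmc6 are high in C3 and C4 of B16F0.

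Within B16F10, C4 was set against C5, which holds most of its other cycling cells. All 31 genes were lower in C4, with a median ratio of -0.70, and 22 of them by 1.5-fold or more, beside 11% of all genes. Psma7 had the lowest ratio, -1.18, with 270 CPM in C4 and 613 CPM in C5. Psmd1, Psma6 and Psma5 were at -1.17, -1.16 and -1.10, and Psmd4, Psma1, Psmb7 and Psmb5 were nearest to level at -0.44, -0.42, -0.36 and -0.23. The activators Psme1 and Psme2 had ratios of -1.20 and -1.41, and Psme1 was at 11.6 CPM in C4 and 26.6 CPM in C5. Psmg4 went the other way, at 113 CPM in C4 and 89.3 CPM in C5. Of 8 genes of the NRF1 list, Nfe2l1, Sel1l and Mafg were 1.5-fold or more higher in C4, and of 11 other parts and cofactors Adrm1, Uchl5 and Txnl1 were lower and Zfand2a higher. The share of all genes higher in C4 by that fold is not given here, so the genes named as higher have no background beside them.

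C4 of B16F10 carried 8.43% mitochondrial UMIs and a median of 29693 UMIs per cell, against 6.2% and 37725 UMIs in C5. With at most 8% mitochondrial UMIs, the median ratio of C4 over C5 was -0.46, with 11 genes lower by 1.5-fold. Within C4, cells with 5 to 8% mitochondrial UMIs had 3752 CPM (56 cells) and those above 8% had 3161 CPM (131 cells), against 6006 CPM and 4646 CPM in the same bins of C5. The 25 C4 cells at most 5% stood apart with 7898 CPM at a median of 20197 UMIs, against 7262 CPM in C5, but they are fewer than the minimum set. Whether mitochondrial share or depth has a part in the level of C4 was not tested.

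C4 and C3 are also the clusters that hold many cells of both lines. In C4, the sum was 3779 CPM in B16F10 and 6630 CPM in B16F0, with a median ratio of -0.80 and 24 of 31 genes 1.5-fold or more lower, beside 14% of all genes. Psmd6, Psmd7, Psma7 and Psma6 had the lowest ratios of the 31 there, -1.46, -1.36, -1.34 and -1.25, and Psmc1, Psmb7, Psma1 and Psma3 the highest, -0.26, -0.33, -0.36 and -0.41. In C3, the sum was 4790 CPM in B16F10 and 6846 CPM in B16F0, with a median of -0.51 and 14 genes lower, beside 9.32% of all genes. Psmd7 was lowest at 169 CPM in B16F10 and 393 CPM in B16F0, followed by Psmd6, Psmc6 and Psma7 at -1.07, -0.89 and -0.85. Psmd8 was level at 656 CPM in B16F10 and 658 CPM in B16F0, and Psmc1, Psmd3 and Psmb7 came next at -0.09, -0.17 and -0.19. With at most 8% mitochondrial UMIs, the median in C4 was -0.45, with 11 genes lower.

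B16F0 split in another way, in which a few genes differed by much and, in the non-cycling pair, the rest by little. Among non-cycling cells, C3 (569 cells) summed to 6775 CPM and C1 (597 cells) to 6221 CPM, with a median ratio of 0.01. In C3, 3 genes were 1.5-fold or more higher, beside 5.41% of all genes, and none lower, beside 3.17%. Psmb5 was at 314 CPM in C3 and 153 CPM in C1, a ratio of 1.04 (0.98 to 1.10). Psmc6 was at 167 CPM in C3 and 98.0 CPM in C1, and Psmd8 at 647 CPM in C3 and 394 CPM in C1. The cycling clusters repeated the order, with 6634 CPM in C4 (467 cells) and 5411 CPM in C2 (641 cells) and a median of 0.21, beside 0.01 for all genes. Of the 31 genes, 26 lay above 0 and 23 intervals were clear above 0, against 17 and 14 in the non-cycling pair. The shares of all genes are not given for these counts, so they have no background. There 6 genes were higher in C4, beside 5.4% of all genes, and none lower, beside 2.44%. Mitochondrial UMIs were 5.26% in C3 and 5.68% in C1 of the non-cycling cells, and 4.94% in C4 and 5.63% in C2 of the cycling cells. Median depth was 34230, 33409, 38722 and 36571 UMIs in the same order. The part of either in these ratios was not tested.

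Psmb5 again led the cycling pair, at 292 CPM in C4 and 123 CPM in C2, a ratio of 1.24, followed by Psmc6 at 1.15, Psmd8 at 0.80, Psmc3 at 0.68, Psmb7 at 0.67 and Psmd6 at 0.60. The summed catalytic genes were therefore at 942 CPM in C3 and 647 CPM in C1, and at 885 CPM in C4 and 530 CPM in C2. Psme1 and Psme2 were also higher, with ratios of 0.78 and 0.71 for C3 over C1 and 1.0 and 0.75 for C4 over C2. Psmd7 and Psmb10 went the other way, at -0.35 each for C3 over C1 and at -0.17 and -0.48 for C4 over C2. In B16F10, Psmb5 was between 166 and 195 CPM in all 3 clusters.

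Psmb5, Psmc6, Psmd6, Psme1 and Psme2 all lie on chromosome 14, and the genes of that chromosome were shifted as a whole between these clusters. The median ratio of the 227 chromosome 14 genes for C3 over C1 was 0.69, with 96.0% of them above 0, the highest of 20 chromosomes. For C4 over C2 it was 0.70 over 247 genes, again with 96.0% above 0. All 5 members on chromosome 14 were above 0 in both pairs. All 6 members on chromosome 2 were also above 0 in both, beside 78.4% and 79.0% of its genes, whose medians were 0.19 and 0.21. Chromosome 7, with Psmd8, had medians of 0.17 and 0.19. Each 26S gene at 1.5-fold or more in either pair lies on chromosome 14, 7 or 2. Chromosome 8, with Psmd7 and Psmb10, had medians of -0.09 and -0.11. Chromosome 1 had medians of 0.33 and 0.30, while its 1 member Psmd1 had ratios of -0.04 and 0.12.

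**Figure D5:**
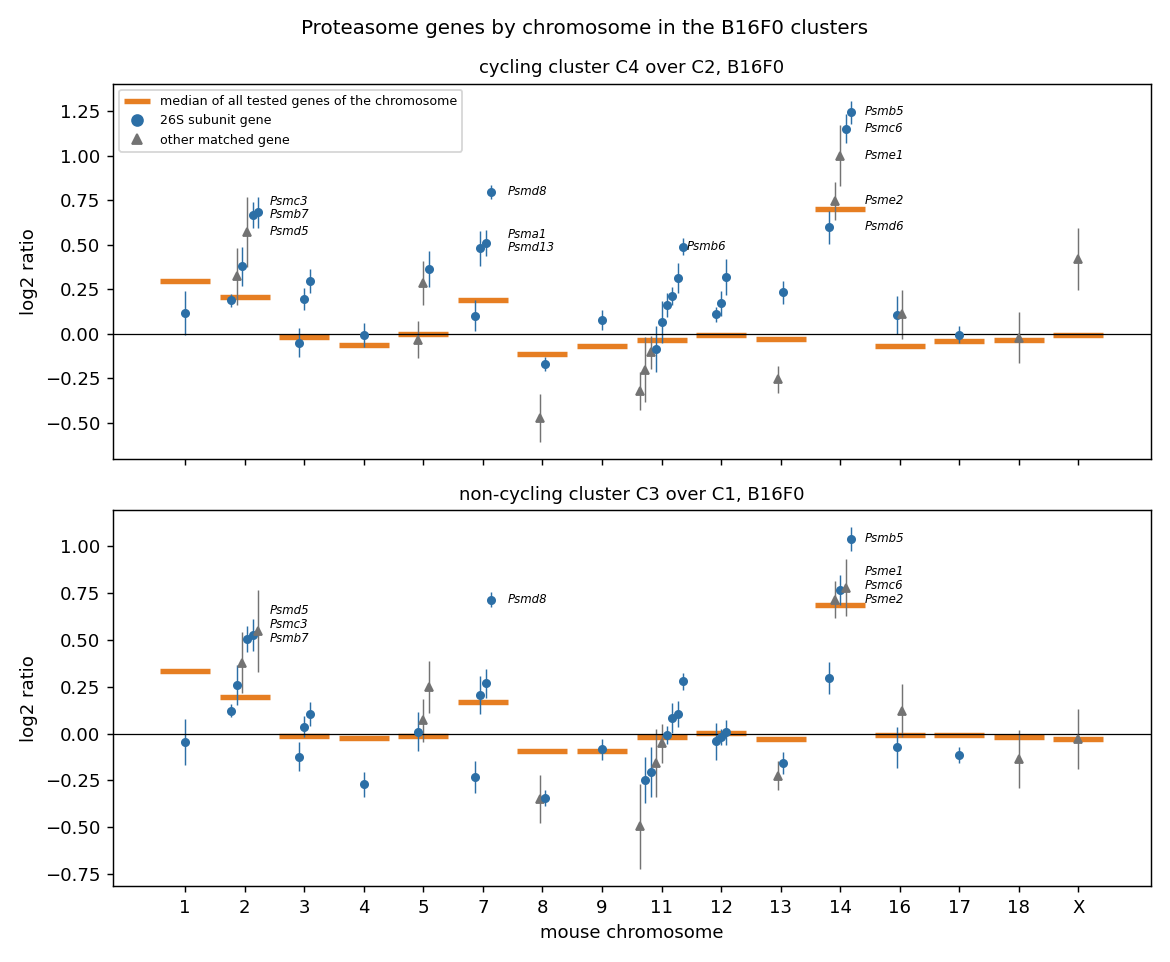
Log2 ratio of each proteasome gene by chromosome for the B16F0 cluster pairs C4 over C2 (cycling, upper panel) and C3 over C1 (non-cycling, lower panel), with exact 95% counting intervals and a bar at the median of all genes of the chromosome. Chromosome 14 has the highest median, 0.70 for C4 over C2 and 0.69 for C3 over C1. Its 5 members all lie above 0, beside 96.0% of its genes in each pair.

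Between the lines, chromosome 1 had the highest median of B16F10 over B16F0, 0.41, and Psmd1 had 0.45. Chromosome 7 had 0.38, and its members Psmd8, Psma1, Psmd13 and Psmc4 had 0.39, 0.21, 0.03 and -0.18. Chromosome 13, with Psma2 and Psmg4, had the lowest median, -0.25. The next lowest, -0.13, was that of chromosome 8, with Psmd7 at -0.79 and Psmb10 at -0.30. Chromosome 12 had 0.31, with 2 of its 3 members above 0, beside 76% of its genes. Chromosomes 3 and 4 had 0.22 and 0.27, while none of their members was above 0, beside 68.4% and 73.7% of their genes. Chromosome 14 had 0.13, and none of its 5 members was above 0, beside 60.6% of its genes. The chromosome medians were computed after the cluster levels had been seen, and the part of chromosome in any of these ratios was not tested.

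Single cells of a line differed widely in the summed 26S level. After thinning to 23173 UMIs, which left out 158 B16F10 and 388 B16F0 cells, a cell had a median of 123 UMIs of the 31 genes in B16F10, with 58 at the 5th and 204 at the 95th percentile. The B16F0 median was 138 UMIs, with 79 at the 5th and 222 at the 95th percentile. By cluster, the medians were 98, 70 and 139 UMIs in C3, C4 and C5 of B16F10 and 135, 118, 154 and 151 UMIs in C1 to C4 of B16F0. Psma7 had a UMI in 99.6% of thinned B16F10 cells and in 100% of thinned B16F0 cells, and Psmd3 in 63.5% and 62.4% of the same cells.

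The subunit genes varied together from cell to cell. The median Pearson correlation over their 465 pairs was 0.24 in B16F10 and 0.21 in B16F0, beside 0.006 and 0.007 over 22434951 pairs of 6699 genes. It was above 0 for 465 of the pairs in B16F10 and 462 in B16F0, beside 55.8% and 58.1% of the pairs of all 6699 genes. Those genes were not matched to the subunit genes in level, and the part of level was not tested. Pairs within the 20S core had medians of 0.33 in B16F10 and 0.27 in B16F0, and pairs within the 19S cap 0.21 and 0.19. Psma7 with Psma4 was the highest pair in B16F10, at 0.53, and Psmb6 with Psmb3 in B16F0, at 0.44. Psmd1 followed the sum of the others least, at 0.18 in B16F10 and 0.12 in B16F0, and Psma7 and Psmb6 most, at 0.72 for Psma7 in B16F10 and 0.60 for Psmb6 in B16F0. Restricting to non-cycling cells gave medians of 0.21 in B16F10 and 0.20 in B16F0. These cells share a library, free RNA and the mitochondrial gradient above, so the correlations are descriptions with no test.

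Among 6369 other genes, the 10 most like the summed 26S level, by the smaller correlation of the 2 lines, included Prdx1, Hsp90aa1, Mdh2, Ubb, Cd63, Ndufa9, Prmt1, Cfl1 and Ppia. Prdx1, a peroxiredoxin, had correlations of 0.68 in B16F10 and 0.66 in B16F0, and Hsp90aa1, the inducible HSP90, 0.68 and 0.60. Mdh2, the mitochondrial malate dehydrogenase, had 0.69 in B16F10 and 0.59 in B16F0, and Ubb, a polyubiquitin gene, 0.58 and 0.69. The median over all 6369 genes was -0.002 in B16F10 and 0.004 in B16F0. Between the lines, their log2 ratios reached from -1.22 for Cd63 to 0.72 for Prmt1, with Mdh2 at 0.01 and Ubb at -0.26.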

How the data were processed

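The authors deposited raw UMI counts for 14959 genes in 4156 cells of 2 libraries (B16F10 and B16F0, 10x Chromium 3′ v2 per the labels' protocols), with class names and S and G2/M scores for each cell; the score columns, per the file headers, are the authors' own. The submitters' processing notes list Cell Ranger 3.0.0, Seurat 3.0 and the build mm10, with no filter on cells stated. The deposited cycling class matched a score above 0 for S or G2/M in 100% of cells. A second copy of the counts and the natural log tables were not used.

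UMIs were summed per gene over the cells of a line or class and divided by the total, giving CPM. No replicate exists and cells are not replicates, so no p-value was computed. Ratios carry exact conditional binomial intervals, levels exact Poisson intervals and shares Clopper-Pearson intervals (95%); all cover counting error only. No doublets were called. Cells were thinned to 23173 UMIs (seed 11) for shares and correlations. The interval code was tested on simulated data. Positions are from GENCODE M21, where 48 of 48 symbols matched 1 gene; promoter windows are from RefSeq. Work was done in Python 3.11.15 (scipy 1.17.1, numpy 2.4.6, matplotlib 3.10.9, pandas 2.3.3); edgeR 4.0.16 and DESeq2 1.42.0 under R 4.3.3 gave scaling factors only.

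The members and all gene lists were chosen with earlier results of these data known. Named genes were the catalytic and immunoproteasome genes, the extremes and the most abundant gene of each role, every member past 1.5-fold between the lines, all accessory members there, and by cell cycle and Kdm5b class the 4 highest and 4 lowest 26S ratios; genes named in cluster pairs and a few others were chosen after their values were seen. Alternatives covered the scaling, the total, the mean of per-cell CPM, subsets of cells, the CPM minimum and the fold. The cluster pairs, mitochondrial bins, counts below 0, chromosome medians and several cell subsets were added after values had been seen. Protein sequences were not used here. A few results on genes outside the members are not reported here.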

Additional observations from a re-analysis of the deposited data

Results flagged for a closer look

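The 26S sum stood in opposite directions by cell cycle in the 2 lines: the log2 ratio of cycling over non-cycling cells was 0.17 in B16F10 and -0.10 in B16F0. It was 0.062 in B16F10 and -0.15 in B16F0 when mitochondrial and ribosomal protein genes were left out of the total. Another 8 results, of single subunit genes, were set apart for the same reason, since their ratios were above 0 in B16F10 and below 0 in B16F0 and both intervals lay clear of 0. They were Psma7 (0.32 in B16F10 and -0.055 in B16F0), Psma2 (0.20 and -0.21), Psma3 (0.22 and -0.047) and Psma6 (0.25 and -0.12) of the alpha ring, Psmc1 (0.30 and -0.12), Psmc5 (0.14 and -0.18) and Psmc6 (0.25 and -0.067) of the ATPases, and Psmd6 (0.28 and -0.18) of the lid. Of all genes compared in both lines, 4.1% met the same rule. The difference between the lines was not tested, since each line has 1 library. Mitochondrial UMIs were 6.57% in cycling and 7.60% in non-cycling cells of B16F10, and 5.36% and 5.48% in B16F0; their part was not tested.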

How the results depend on the processing

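Over the summary values and their alternatives, 171 settings kept the direction and size of a result, 38 moved it and 4 reversed it. For single genes, 280 settings were labelled as kept and 331 as moved. A gene short of 1.5-fold or of 10 CPM could not be labelled as reversed. Its turn past 0 was counted as moved or, if small, as kept. The line median of -0.16 was -0.26 under TMM and -0.26 under size factors, which shift all genes by -0.10, -0.36 in non-cycling cells (6 lower), -0.10 in cycling cells, -0.040 at most 8% mitochondrial UMIs, -0.060 without C4 and, reversed, 0.032 in cycling cells at most 8% (1 higher, 13 below 0). With a ratio of 5 to 4 as the minimum, 3 genes were higher and 5 lower between the lines, and at 2-fold 0 were lower. The immunoproteasome sum of -0.33 was -0.42 under TMM, -0.43 under size factors and -0.45 in non-cycling cells at most 8%. Psmb10 made 2234 of the 2238 UMIs of this sum in B16F10 and 4573 of 4657 in B16F0. These values therefore describe Psmb10 and not Psmb8 or Psmb9. A CPM minimum or another fold gives no value for a summed ratio. Cycling over non-cycling cells of B16F10 had a median of 0.16 with 0 genes higher when the total left out mitochondrial and ribosomal protein genes, and 0.37 without C4; 11 were higher from a ratio of 5 to 4, 0 at 2-fold, 1 at 25000 to 45000 UMIs and 1 at most 8%. In B16F0 it was -0.11 without those genes in the total, -0.12 at 25000 to 45000 UMIs and -0.12 without C4 (1 lower), and 1 was lower from 5 to 4. The Kdm5b median of B16F0 reversed to -0.011 under TMM and to -0.035 within C3; from 5 to 4, 3 genes were higher in B16F10 and 1 in B16F0, and within C3 1 was higher in B16F10. C4 over C5 was -0.87 at 25000 to 45000 UMIs and -0.46 at most 8% (11 lower). C4 of B16F10 over C4 of B16F0 was -0.66 by the mean of per-cell CPM and -0.45 at most 8% (11 lower). C3 over C1 in B16F0 reversed to -0.0023 when the total left out the mitochondrial and ribosomal protein genes. Without thinning, the median correlations were 0.30 in B16F10 and 0.26 in B16F0. The cause of these moves was not tested. No paired analysis was possible because there is 1 library per line. Protein identity was not run.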
